A study of Homo sapiens with 9 samples.

Results

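Transcripts of 40 genes of endoplasmic reticulum (ER) protein folding and the unfolded protein response were followed in EGI-1, an established human cholangiocarcinoma (bile duct cancer) cell line. The genes were taken from a list of symbols matched to the counted genes by Ensembl identifier. All 40 were found among 58381 genes, and VIMP was found under its current symbol SELENOS. Of these, 38 passed the filter on low counts and were tested with 12814 genes in all.

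Libraries were made from cells carrying a tetracycline-inducible short hairpin RNA. The hairpin was FOSL1sh3 or FOSL1sh10, which both target FOSL1, or GFPsh, the control, with 3 libraries each. Doxycycline, which induces the hairpin, was given to every group including GFPsh, at 2 ug/ml for 4 days, and RNA was taken after a further 24 h of seeding. All groups therefore shared the drug, and cells without doxycycline were not analysed here. The labels do not say whether a hairpin line was 1 clone or a pool, or whether replicates were separate cultures. The p-values accordingly measure only the spread between these libraries, which may be technical.

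Secreted and membrane proteins enter the ER through a channel, fold with the help of chaperones and disulfide-forming enzymes, and are exported or, if misfolded, degraded. When unfolded protein builds up, the sensors ATF6, IRE1 (encoded by ERN1) and PERK (encoded by EIF2AK3) start the unfolded protein response, which raises chaperone and degradation genes through the factors ATF6 and spliced XBP1 and slows translation through PERK. Gene counts report transcript level, and do not show splicing of XBP1 or the activity of the sensors.

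Total counts ran from 6893026 to 10604251 per library. FOSL1, the AP-1 subunit that both hairpins target, had 72.3, 70.3 and 44.9 CPM (the count scaled by TMM to a common library total) in FOSL1sh3, 70.9, 57.1 and 65.8 CPM in FOSL1sh10, and 303.0, 257.0 and 182.1 CPM in GFPsh. It fell by 1.98 on the log2 scale with FOSL1sh3 (adjusted p 1.2e-05) and by 1.94 with FOSL1sh10 (adjusted p 1.03e-05), and the hairpins differed by -0.05 (adjusted p 0.9). Adjusted p-values are from edgeR's quasi-likelihood test over all genes tested, and a gene was called below 0.05. Epithelial and biliary markers summed to 12228.1 to 13589.2 CPM in FOSL1sh3, 10994.1 to 12961.4 in FOSL1sh10 and 10946.3 to 11784.5 in GFPsh, with 8 of 8 tested. KRT18 and KRT19 made up most of these sums. Single markers moved: KRT7 was higher with both hairpins (0.46 with FOSL1sh3, adjusted p 0.0432, and 0.71 with FOSL1sh10, adjusted p 0.00456). Between the hairpins EPCAM was at -0.49 (adjusted p 0.0343), SOX9 at -0.80 (adjusted p 0.00189) and KRT19 at 0.50 (adjusted p 0.0243). Leukocyte markers summed to at most 8.86 CPM in any library and 3 of 6 were at 0 throughout, and fibroblast and endothelial markers to at most 8.56 CPM with 3 of 7 at 0 throughout. Of the plasma cell list, 1 of 5 was tested, SDC1, which epithelium also expresses, and the list summed to 163.3 to 211.5 CPM in FOSL1sh3, 108.0 to 119.0 in FOSL1sh10 and 94.9 to 109.5 in GFPsh. Hepatocyte markers summed to at most 0.788 CPM.

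Sequence around the RefSeq start of these genes is shown first, because the ER stress response element (ERSE) is the textbook binding site of ATF6 with its partner NF-Y and is found near several chaperone genes. An entry was present for 36 of 40 genes in a RefSeq promoter table (GRCh38.p14) that holds 250 bases before and 50 after 1 start per gene. That start is not always the outermost start of the counted gene. In 10 of the 36 the whole window lies after that outermost start, and the RefSeq start lies 3317 bases inside the counted gene for DNAJB11, 20301 for CANX and 34247 for SSR1. The elements printed for CANX, CRELD2 and HSP90B1 therefore lie within the counted gene, before its RefSeq start. DERL1, DERL3, PDIA3 and SEC24D had none. ERSE was searched as CCAAT and CCACG separated by 9 bases of any kind, and ERSE-II as ATTGG and CCACG separated by 1 base, on both strands. ERSE occurred in 7 of the 36 (19.4%) and in 0.0806% of all 27305 promoters, and ERSE-II in 3 of 36 (8.33%) and in 0.0549% of all. As the ERSE is known from chaperone genes, its share here was fixed in part by the choice of genes and does not test the list. A match describes the letters and does not show binding. The matches are printed with their flanks in the direction of the gene, capitals mark the element, and an element on the opposite strand reads as CGTGG followed by ATTGG, or by CCAAT for ERSE-II.
HSPA5 ERSE, chr9:125241381-125241419, minus strand: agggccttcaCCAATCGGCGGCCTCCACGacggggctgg
CANX ERSE, chr5:179698768-179698806, plus strand: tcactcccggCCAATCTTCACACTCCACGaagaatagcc
XBP1 ERSE, chr22:28800593-28800631, minus strand: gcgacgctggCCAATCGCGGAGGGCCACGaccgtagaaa
HSP90B1 ERSE, chr12:103930206-103930244, plus strand: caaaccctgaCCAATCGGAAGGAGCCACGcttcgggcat
HSP90B1 ERSE, chr12:103930311-103930349, plus strand: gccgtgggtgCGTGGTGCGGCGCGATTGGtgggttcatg
CALR ERSE, chr19:12938374-12938412, plus strand: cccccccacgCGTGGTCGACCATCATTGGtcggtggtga
CRELD2 ERSE, chr22:49918544-49918582, plus strand: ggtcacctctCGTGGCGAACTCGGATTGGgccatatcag
ERO1B ERSE, chr1:236282173-236282208, minus strand: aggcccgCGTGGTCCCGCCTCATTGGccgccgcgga
HERPUD1 ERSE-II, chr16:56932015-56932045, plus strand: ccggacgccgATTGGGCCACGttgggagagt
HYOU1 ERSE-II, chr11:119057370-119057400, minus strand: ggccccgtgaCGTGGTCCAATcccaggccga
HYOU1 ERSE-II, chr11:119057264-119057294, minus strand: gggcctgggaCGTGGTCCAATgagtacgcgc
SDF2L1 ERSE-II, chr22:21642104-21642134, plus strand: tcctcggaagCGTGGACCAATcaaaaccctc

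The CCACG block alone, which is part of both elements, was present in 26 of 36 promoters (72.2%) and in 37.9% of all. The AP-1 element was searched as TGANTCA, where N is any base, which is looser than the site that FOS and JUN dimers recognise. It was present in 2 of 36 (5.56%), as TGAATCA in HSPA5 and TGAGTCA in SEC61B, and in 7.76% of all promoters. The core TGACGTGG of XBP1 and ATF6, which contains the CCACG block on its other strand, was in 1 of 36, HYOU1 (2.78%), and in 0.795% of all. The ATF4 element TGATGNAAT was in 0 of 36 and in 1.02% of all. Whole promoters are printed for the chaperone HSPA5 and its co-chaperones DNAJB9 and DNAJB11, the genes with the largest differences in that role, since they differ in what the search found. Capitals mark ERSE and TGANTCA in HSPA5 and CCACG on either strand in DNAJB9, and DNAJB11, whose sequence holds none of the elements searched, has no capitals. The DNAJB9 and DNAJB11 windows lie wholly after the outermost start of the counted gene. The RefSeq start of DNAJB9 lies 306 bases inside it.
HSPA5 promoter, chr9:125241294-125241593, minus strand: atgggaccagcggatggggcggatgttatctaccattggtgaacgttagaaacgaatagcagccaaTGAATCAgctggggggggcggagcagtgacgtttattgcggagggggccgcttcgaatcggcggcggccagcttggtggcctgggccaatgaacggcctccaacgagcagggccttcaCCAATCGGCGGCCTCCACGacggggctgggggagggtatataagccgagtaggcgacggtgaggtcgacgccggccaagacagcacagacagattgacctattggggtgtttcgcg
DNAJB9 promoter, chr7:108569624-108569923, plus strand: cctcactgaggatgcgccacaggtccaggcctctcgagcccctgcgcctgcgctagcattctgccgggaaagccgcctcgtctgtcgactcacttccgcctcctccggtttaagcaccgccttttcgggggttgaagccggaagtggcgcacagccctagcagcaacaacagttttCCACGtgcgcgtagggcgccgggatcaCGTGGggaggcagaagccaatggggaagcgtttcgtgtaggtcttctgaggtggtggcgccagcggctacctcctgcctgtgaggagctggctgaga
DNAJB11 promoter, chr3:186570470-186570769, plus strand: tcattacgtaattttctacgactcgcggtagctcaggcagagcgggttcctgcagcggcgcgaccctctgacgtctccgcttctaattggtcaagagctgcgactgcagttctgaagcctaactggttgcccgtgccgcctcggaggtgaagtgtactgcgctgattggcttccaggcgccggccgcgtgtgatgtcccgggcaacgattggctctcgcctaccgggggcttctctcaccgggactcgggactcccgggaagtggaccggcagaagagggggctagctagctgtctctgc

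With FOSL1sh3, 5 of 38 genes were called, all lower than GFPsh (13.2%), against 10.9% of all genes called in either direction and 5.65% called lower. They were DNAJB11, HSPA5, DNAJB9, ERO1A and SSR1. With FOSL1sh10, 1 of 38 was called, PPP1R15A, which was higher (2.63%), against 5.28% of all genes in either direction and 3.13% higher. For the mean of both hairpins 2 of 38 were called, DNAJB11 and SSR1, both lower (5.26%), against 6.22% of all genes. The 3 comparisons share the GFPsh libraries. With FOSL1sh3, 3 were called without GFPsh 1, GFPsh 3 or FOSL1sh3 1, where 4.51%, 5.69% and 7.54% of all genes were called. Without FOSL1sh3 2, 9 were called, 8 lower and 1 higher, against 13.6% of all genes. With FOSL1sh10, 0 were called without GFPsh 2, GFPsh 3 or any 1 FOSL1sh10 library, where 2.62% to 3.19% of all genes were called. For the mean, 1 was called without any 1 GFPsh or FOSL1sh10 library, against 2.38% to 4.53% of all genes. Over the 38 genes the median log2 fold change was -0.24 with FOSL1sh3, 0.08 with FOSL1sh10 and -0.10 for the mean, against 0.01, 0.00 and -0.01 over all genes tested. The count of 0 called higher with FOSL1sh3 stands beside 1 gene at an unadjusted p under 0.05 and 0 with DESeq2, and the count of 0 called lower with FOSL1sh10 beside 2 and 0. At that unadjusted threshold 11 were lower with FOSL1sh3 and 3 higher with FOSL1sh10. Of all 12814 genes, 3447 passed it with FOSL1sh3 and 2488 with FOSL1sh10, in either direction. The unadjusted counts per role below stand beside the same totals.

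More of the 38 genes were called between the hairpins than between either hairpin and the control. Between FOSL1sh3 and FOSL1sh10, 12 of 38 were called (31.6%), against 12.7% of all genes. Lower in FOSL1sh3 were 10 of them (26.3%, against 7.00% of all genes) and higher were 2 (5.26%, against 5.74%). Without FOSL1sh10 2 the count was 4 of 38, against 5.37% of all genes, and without FOSL1sh10 3 it was 6 of 38, against 6.93%. The median difference was -0.29 over the 38 genes and 0.00 over all genes. Transcripts of the 40 genes together took 0.377% ± 0.0148 of counts in FOSL1sh3, 0.488% ± 0.0115 in FOSL1sh10 and 0.452% ± 0.00814 in GFPsh (SD, n = 3 each). These are shares of raw library totals without the TMM scale, and on library totals the groups did not overlap. The TMM factor was higher in every FOSL1sh10 library, and lower in every FOSL1sh3 library, than in any GFPsh library. TMM scaling therefore brings both hairpins closer to GFPsh, and the separation of FOSL1sh10 from GFPsh depends on the scale. Ribosomal protein genes, which make up the cytosolic translation machinery, took 27.2 to 27.5% in FOSL1sh3, 20.7 to 24.3% in FOSL1sh10 and 24.6 to 26.2% in GFPsh. EPCAM and SOX9 were also lower, and KRT19 higher, in FOSL1sh3 than in FOSL1sh10. The part of that composition and of those markers in the differences was not tested. With library totals alone as the scale, 15 of the 38 were called lower and 0 higher, 10 of them among the main 12, against 17.1% of all genes, and the median of all genes moved to -0.17. In bulk RNA, fewer cells with a transcript and less of it per cell cannot be told apart.

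**Figure D1:**
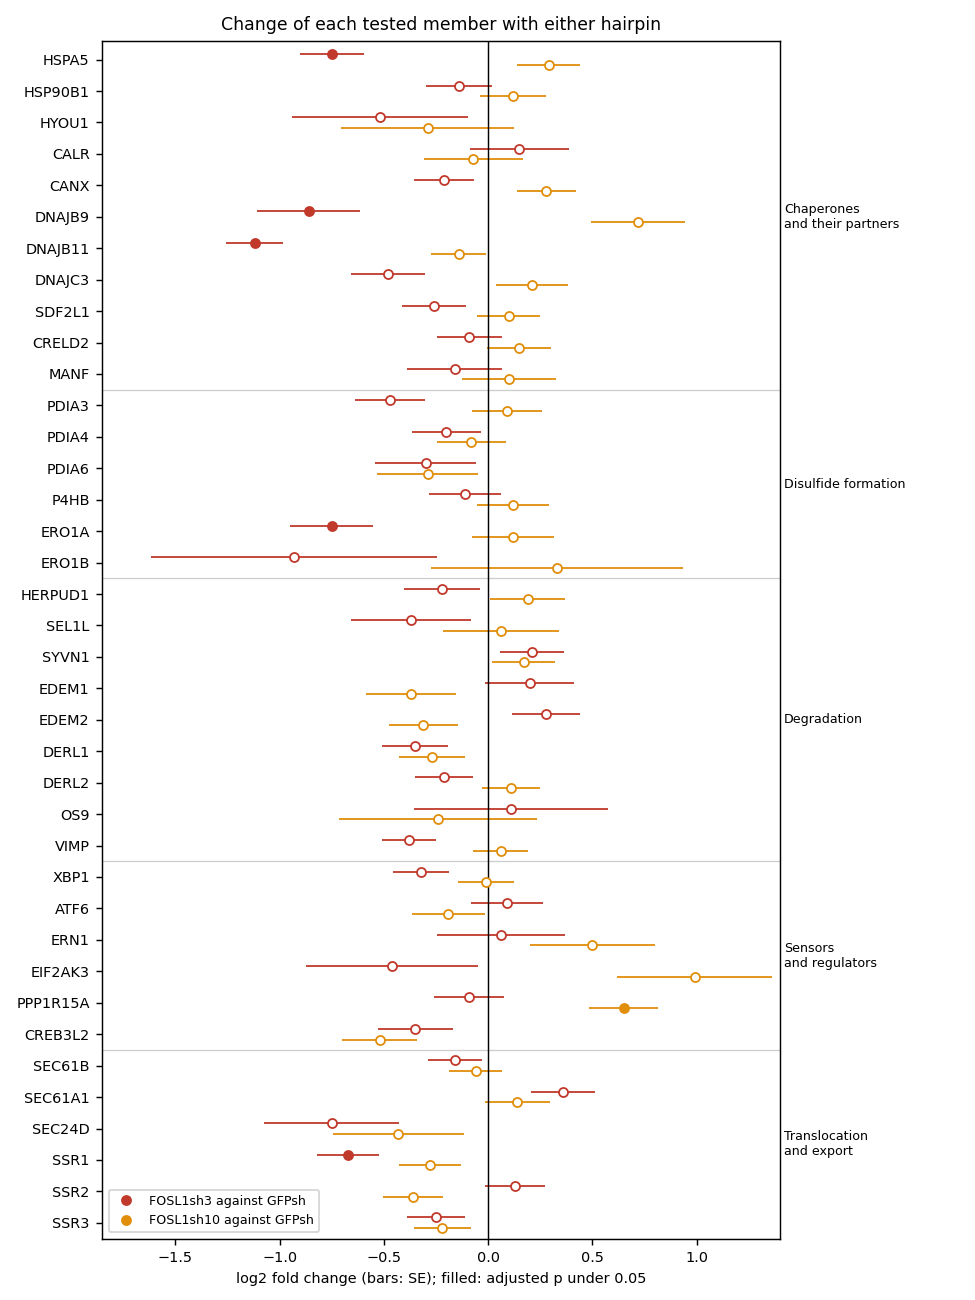
Log2 fold change against GFPsh for each of the 38 tested genes, FOSL1sh3 in red and FOSL1sh10 in orange, with SE bars, grouped by role; filled points have adjusted p under 0.05. The 5 filled red points lie left of 0, between -1.12 and -0.67, and the filled orange point is PPP1R15A at 0.65.

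Among chaperones and their partners, 3 of 11 were called lower with FOSL1sh3 and 0 of 11 with FOSL1sh10, and 5 of 11 were lower in FOSL1sh3 than in FOSL1sh10, with medians of -0.26, 0.12 and -0.36. The share lower with FOSL1sh3 was 27.3%, against 5.65% of all genes. Between the hairpins it was 45.5%, against 7.00% of all genes, and with FOSL1sh10 5.28% of all genes were called in either direction. With FOSL1sh10, 1 was higher and 0 lower at an unadjusted p under 0.05, and DESeq2 called 0. HSPA5 (BiP), the Hsp70 of the ER lumen that binds unfolded chains and holds the stress sensors inactive, lies at chr9:125234853-125241330 on the minus strand. It had 131.2, 179.0 and 137.9 CPM in FOSL1sh3, 258.2, 310.2 and 354.8 CPM in FOSL1sh10, and 253.0, 236.1 and 266.2 CPM in GFPsh. All FOSL1sh3 libraries were below the other 6, and FOSL1sh10 overlapped GFPsh. It fell by 0.75 on the log2 scale with FOSL1sh3 (SE 0.154, adjusted p 0.00518), and was 0.29 with FOSL1sh10 (adjusted p 0.317). The hairpin difference was -1.04 (SE 0.155, adjusted p 0.00033).

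DNAJB11 (ERdj3), a soluble Hsp40 that hands unfolded clients to BiP, lies at chr3:186567403-186585800 on the plus strand. Its levels were 45.3, 48.8 and 43.9 CPM in FOSL1sh3, 80.2, 94.7 and 96.2 CPM in FOSL1sh10, and 97.0, 95.3 and 107.4 CPM in GFPsh. FOSL1sh3 stood apart below both other groups, which overlapped. The log2 change was -1.12 with FOSL1sh3 (SE 0.135, adjusted p 8.51e-05), -0.14 with FOSL1sh10 (adjusted p 0.613), -0.63 for the mean (adjusted p 0.00251) and -0.98 between the hairpins (SE 0.135, adjusted p 0.000176). Exons of TBCCD1 on the opposite strand cover 6.65% of the exon bases of DNAJB11, and counts were made without strand. Such a share of bases is not the share of reads affected, which was not examined.

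DNAJB9 (ERdj4), an Hsp40 that promotes degradation of misfolded proteins and restrains IRE1, lies at chr7:108569568-108574850 on the plus strand. It had 3.8, 5.63 and 3.69 CPM in FOSL1sh3, 10.7, 14.8 and 13.1 CPM in FOSL1sh10, and 8.14, 6.98 and 8.49 CPM in GFPsh. FOSL1sh3 libraries were all below the controls and FOSL1sh10 libraries all above them. Exons of THAP5 and PNPLA8 on the opposite strand cover 6.45% and 3.49% of its exon bases, with 784 and 232 counts over all libraries beside 638 for DNAJB9, which makes its value uncertain. The log2 change was -0.86 with FOSL1sh3 (SE 0.247, adjusted p 0.0321), 0.72 with FOSL1sh10 (SE 0.225, adjusted p 0.0738) and -1.57 between the hairpins (SE 0.24, adjusted p 0.00041). The call with FOSL1sh3 was lost without GFPsh 1, GFPsh 3, FOSL1sh3 1 or FOSL1sh3 3 (adjusted p 0.0965 to 0.104) and when only those groups were fitted (0.0654; range over all alternatives 0.0141 to 0.104). With FOSL1sh10 it passed the threshold under library totals (0.0402) and with only the groups compared (0.0354; range 0.0354 to 0.274).

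DNAJC3 (P58IPK), a co-chaperone of BiP, had 17.3, 22.2 and 18.6 CPM in FOSL1sh3, 25.0, 35.2 and 33.0 CPM in FOSL1sh10, and 29.0, 24.2 and 27.6 CPM in GFPsh. FOSL1sh3 was below both other groups, and its difference from FOSL1sh10 was -0.69 (SE 0.175, adjusted p 0.0157) while its change from GFPsh was -0.48 (adjusted p 0.0888). CANX (calnexin), the membrane lectin that holds folding glycoproteins, had 136.2, 160.6 and 160.5 CPM in FOSL1sh3, 189.0, 239.9 and 213.4 CPM in FOSL1sh10, and 177.9, 154.6 and 195.2 CPM in GFPsh. FOSL1sh3 and FOSL1sh10 were separate and each overlapped GFPsh, and the hairpin difference was -0.49 (SE 0.143, adjusted p 0.0302). Leaving out FOSL1sh3 1, FOSL1sh10 2 or FOSL1sh10 3 took the adjusted p to 0.0584 to 0.101 for DNAJC3, and to 0.0886 to 0.18 for CANX, whose call did not hold when GFPsh was left out of the fit (0.0522).

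**Figure D2:**
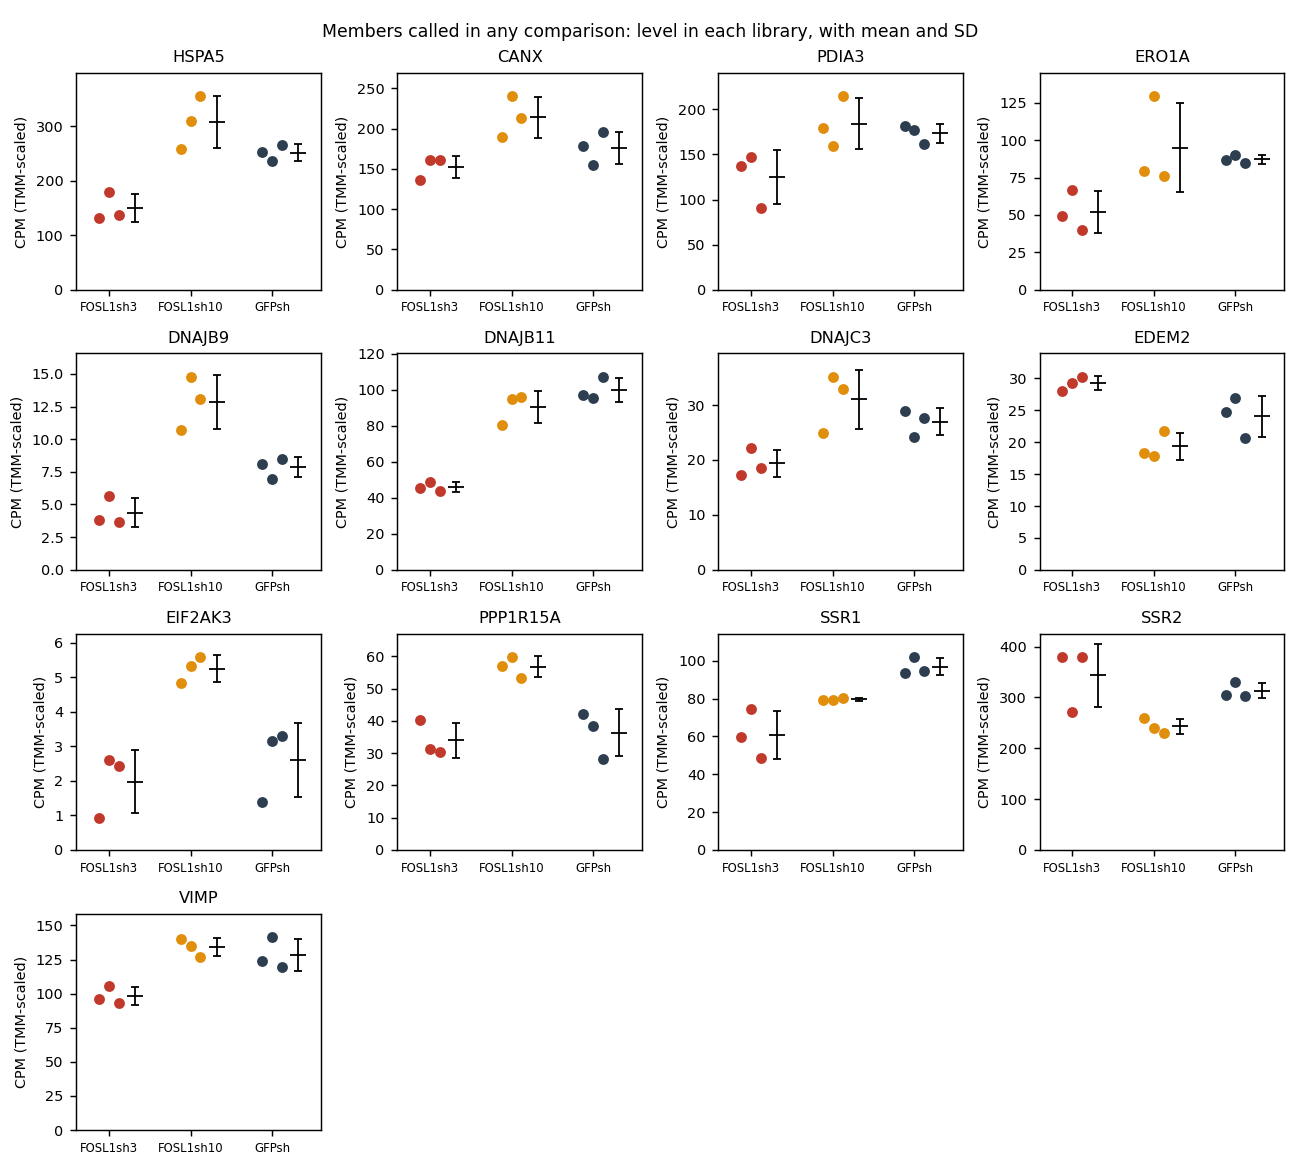
Level in CPM of the 13 genes called in any comparison, 1 point per library, with mean and SD bars; FOSL1sh3 is red, FOSL1sh10 orange and GFPsh dark blue. For HSPA5 the FOSL1sh3 points lie between 131.2 and 179.0 CPM, below every other library, and for DNAJB9 the hairpins lie on opposite sides of GFPsh.

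Other textbook chaperones were not called in any comparison. HSP90B1 (GRP94), the ER Hsp90, had 317.2, 308.7 and 216.8 CPM in FOSL1sh3, 322.4, 317.2 and 371.7 in FOSL1sh10, and 282.1, 290.9 and 357.8 in GFPsh, with log2 values of -0.14 and 0.12 for the hairpins (adjusted p 0.606 and 0.746). CALR (calreticulin), the soluble partner of calnexin, had 76.2, 116.8 and 197.9 CPM in FOSL1sh3, 133.6, 89.7 and 110.7 in FOSL1sh10, and 116.6, 112.2 and 122.6 in GFPsh. The groups overlapped for both genes, and in CALR the FOSL1sh3 libraries spread across the whole range. The uncalled chaperones HSP90B1, HYOU1, CALR, SDF2L1, CRELD2 and MANF lay between -0.52 and 0.15 with FOSL1sh3 and between -0.29 and 0.15 with FOSL1sh10. Of the 7 genes with an ERSE, HSPA5 was the member called lower with FOSL1sh3, and HSPA5 and CANX were the members called lower in FOSL1sh3 than in FOSL1sh10. Counted by promoter, an ERSE was in 1 of 5 genes called lower with FOSL1sh3. It was in 2 of 9 called lower between the hairpins, beside 7 of 36 (19.4%) of all the listed genes with a promoter entry.

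In disulfide formation, 1 of 6 genes was called lower with FOSL1sh3 (16.7%, against 5.65% of all genes). With FOSL1sh10, 0 were called, against 5.28% of all genes in either direction. Lower in FOSL1sh3 than in FOSL1sh10 were 2 of 6 (33.3%, against 7.00% of all genes). With FOSL1sh10, 0 passed an unadjusted p under 0.05 and DESeq2 called 0. ERO1A, the oxidase that recharges protein disulfide isomerase and is also induced by hypoxia, lies at chr14:52639916-52695900 on the minus strand. It had 49.2, 66.9 and 39.8 CPM in FOSL1sh3, 79.7, 129.4 and 76.2 CPM in FOSL1sh10, and 86.6, 90.4 and 84.8 CPM in GFPsh. FOSL1sh3 was below all other libraries. In FOSL1sh10, replicate 2 was above GFPsh and the other libraries were below it. The log2 change with FOSL1sh3 was -0.75 (SE 0.2, adjusted p 0.0229), and the hairpin difference was -0.87 (SE 0.2, adjusted p 0.00824). The change from GFPsh lost its call without any 1 GFPsh library, FOSL1sh3 1 or FOSL1sh3 3 (adjusted p 0.0542 to 0.0972), and the hairpin difference without FOSL1sh10 2 (0.0822).

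PDIA3 (ERp57), the isomerase that works with calnexin and calreticulin on glycoproteins, had 137.1, 146.7 and 90.7 CPM in FOSL1sh3, 179.0, 159.2 and 214.4 CPM in FOSL1sh10, and 181.7, 176.8 and 161.9 CPM in GFPsh. FOSL1sh3 was below both other groups, which overlapped, and differed from FOSL1sh10 by -0.56 (SE 0.169, adjusted p 0.0357) and from GFPsh by -0.47 (adjusted p 0.0785). The hairpin call was lost without FOSL1sh3 3 or any 1 FOSL1sh10 library, or with only the groups compared (adjusted p 0.0524 to 0.175). P4HB, the main protein disulfide isomerase, had 223.3, 354.4 and 364.4 CPM in FOSL1sh3, 405.7, 315.4 and 380.2 in FOSL1sh10, and 294.2, 367.0 and 353.1 in GFPsh, all overlapping. The uncalled members of the role, PDIA4, PDIA6, P4HB and ERO1B, lay between -0.93 and -0.11 with FOSL1sh3 and between -0.29 and 0.33 with FOSL1sh10. ERO1B, at the low end, averaged 11.3 raw counts per library. PDIA6 shares 25.2% of its exon bases with ATP6V1C2 on the opposite strand, which makes its value uncertain.

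In ER-associated degradation, 9 of 11 genes were tested and 0 were called against GFPsh with either hairpin. Of all genes, 10.9% were called with FOSL1sh3 and 5.28% with FOSL1sh10. At an unadjusted p under 0.05, 2 were lower and 0 higher with FOSL1sh3, and 0 moved with FOSL1sh10. DESeq2 called 1 lower with FOSL1sh3. EDEM3, with 1 to 14 counts per library, and DERL3, with 1 count in FOSL1sh3 2 and 0 in the other 8, were not tested. VIMP (SELENOS), a membrane selenoprotein that recruits the degradation machinery, had 96.4, 105.9 and 92.9 CPM in FOSL1sh3, 140.2, 135.1 and 127.2 CPM in FOSL1sh10, and 123.7, 141.6 and 119.5 CPM in GFPsh. FOSL1sh3 was below both other groups, with log2 differences of -0.45 against FOSL1sh10 (SE 0.131, adjusted p 0.0316) and -0.38 against GFPsh (adjusted p 0.068).

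EDEM2, which trims mannose from misfolded glycoproteins and so marks them for degradation, went the other way, with 28.1, 29.3 and 30.3 CPM in FOSL1sh3, 18.3, 17.9 and 21.8 CPM in FOSL1sh10, and 24.7, 26.9 and 20.6 CPM in GFPsh. FOSL1sh3 was above all other libraries, and the hairpin difference was 0.59 (SE 0.165, adjusted p 0.0245). The VIMP call was lost without FOSL1sh3 1, FOSL1sh3 3 or any 1 FOSL1sh10 library, with no filter on low counts or with only the groups compared (adjusted p 0.0572 to 0.12), and the EDEM2 call without FOSL1sh3 3, FOSL1sh10 1 or FOSL1sh10 2 (0.055 to 0.106) or under library totals (0.097). The other tested members, HERPUD1, SEL1L, SYVN1, EDEM1, DERL1, DERL2 and OS9, lay between -0.37 and 0.21 with FOSL1sh3 and between -0.37 and 0.19 with FOSL1sh10. SYVN1 (HRD1), the central ubiquitin ligase, shares 7.24% of its exon bases with FAU and 6.48% with MRPL49. Over all libraries FAU had 241738 counts and MRPL49 6378, beside 6155 for SYVN1, which makes the value of SYVN1 uncertain.

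Among sensors and regulators, 0 of 6 were called with FOSL1sh3, where 1 was lower and 0 higher at an unadjusted p under 0.05 and DESeq2 called 0. The share of all genes called with FOSL1sh3 was 10.9%. With FOSL1sh10, 1 of 6 was called higher (16.7%, against 3.13% of all genes). Lower in FOSL1sh3 than in FOSL1sh10 were 2 of 6 (33.3%, against 7.00% of all genes). PPP1R15A (GADD34), the phosphatase subunit that reverses the PERK block on translation, lies at chr19:48872392-48876057 on the plus strand. It had 40.3, 31.3 and 30.4 CPM in FOSL1sh3, 56.9, 59.9 and 53.4 CPM in FOSL1sh10, and 42.2, 38.5 and 28.2 CPM in GFPsh. FOSL1sh10 was above all other libraries, and FOSL1sh3 overlapped GFPsh. The log2 change was 0.65 with FOSL1sh10 (SE 0.166, adjusted p 0.0265), -0.09 with FOSL1sh3 (adjusted p 0.782) and -0.73 between the hairpins (SE 0.166, adjusted p 0.00766). The call with FOSL1sh10 was lost without GFPsh 2, GFPsh 3 or any 1 FOSL1sh10 library (adjusted p 0.0626 to 0.139).

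EIF2AK3, the gene of PERK, had 0.924, 2.6 and 2.42 CPM in FOSL1sh3, 4.85, 5.32 and 5.6 CPM in FOSL1sh10, and 1.38, 3.15 and 3.31 CPM in GFPsh, with a mean of 27.8 raw counts per library. FOSL1sh10 was above all other libraries, by 0.99 against GFPsh (SE 0.37, adjusted p 0.137), and FOSL1sh3 differed from it by -1.45 (SE 0.388, adjusted p 0.0208). That call was lost without FOSL1sh3 1, FOSL1sh10 2 or FOSL1sh10 3 (adjusted p 0.0691 to 0.0821).

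ATF6, the sensor that becomes a transcription factor on cleavage, had 25.0, 25.2 and 27.0 CPM in FOSL1sh3, 18.5, 23.4 and 21.7 in FOSL1sh10, and 27.0, 19.2 and 26.5 in GFPsh. ERN1 had 9.54, 13.1 and 4.71 CPM in FOSL1sh3, 7.84, 16.1 and 12.7 in FOSL1sh10, and 9.1, 9.0 and 8.05 in GFPsh. Neither was called, and both hairpin groups overlapped the controls. XBP1, whose mRNA IRE1 splices, had 113.2, 129.5 and 111.6 CPM in FOSL1sh3, 142.6, 156.6 and 140.7 in FOSL1sh10, and 151.9, 130.9 and 159.3 in GFPsh. The FOSL1sh3 libraries were below all others, with log2 values of -0.32 against GFPsh (adjusted p 0.133) and -0.31 against FOSL1sh10 (adjusted p 0.135). CREB3L2, a membrane-bound factor that raises secretory pathway genes, was at -0.35 with FOSL1sh3 and -0.52 with FOSL1sh10, with both hairpins' libraries below the controls and adjusted p 0.218 and 0.108.

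In translocation and export, 1 of 6 genes was called lower with FOSL1sh3 (16.7%, against 5.65% of all genes). With FOSL1sh10, 0 were called, against 5.28% of all genes in either direction. There 1 was lower and 0 higher at an unadjusted p under 0.05, and DESeq2 called 0. SSR1 (TRAP alpha), a subunit of the translocon-associated complex, lies at chr6:7268306-7347446 on the minus strand. It had 59.5, 74.3 and 48.7 CPM in FOSL1sh3, 79.3, 79.3 and 80.4 CPM in FOSL1sh10, and 93.8, 102.2 and 94.7 CPM in GFPsh. Both hairpins were wholly below the controls, and FOSL1sh3 wholly below FOSL1sh10. The log2 change was -0.67 with FOSL1sh3 (SE 0.149, adjusted p 0.00877), -0.28 with FOSL1sh10 (adjusted p 0.311), -0.48 for the mean (adjusted p 0.0305) and -0.39 between the hairpins (adjusted p 0.0945). The call for the mean was lost without any 1 GFPsh or FOSL1sh10 library (adjusted p 0.057 to 0.12).

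SSR2 (TRAP beta), from the same complex, had 379.0, 271.3 and 380.0 CPM in FOSL1sh3, 259.5, 239.7 and 230.8 CPM in FOSL1sh10, and 305.3, 331.0 and 303.4 CPM in GFPsh. FOSL1sh3 was above FOSL1sh10, by 0.50 (SE 0.146, adjusted p 0.0315), and FOSL1sh10 lay below GFPsh at -0.36 (adjusted p 0.167). The hairpin call was lost without FOSL1sh3 1, FOSL1sh3 3 or any 1 FOSL1sh10 library, under library totals or with only the groups compared (adjusted p 0.0505 to 0.124). SSR3, SEC61B, SEC61A1 and SEC24D, a further TRAP subunit, a pair of Sec61 channel subunits and a COPII coat protein, were not called and lay between -0.75 and 0.36 with FOSL1sh3 and between -0.43 and 0.14 with FOSL1sh10. SEC61A1 shares 7.32% of its exon bases with RUVBL1 on the opposite strand. Over all libraries RUVBL1 had 10834 counts, beside 12604 for SEC61A1, which makes the value of SEC61A1 uncertain.

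**Figure D3:**
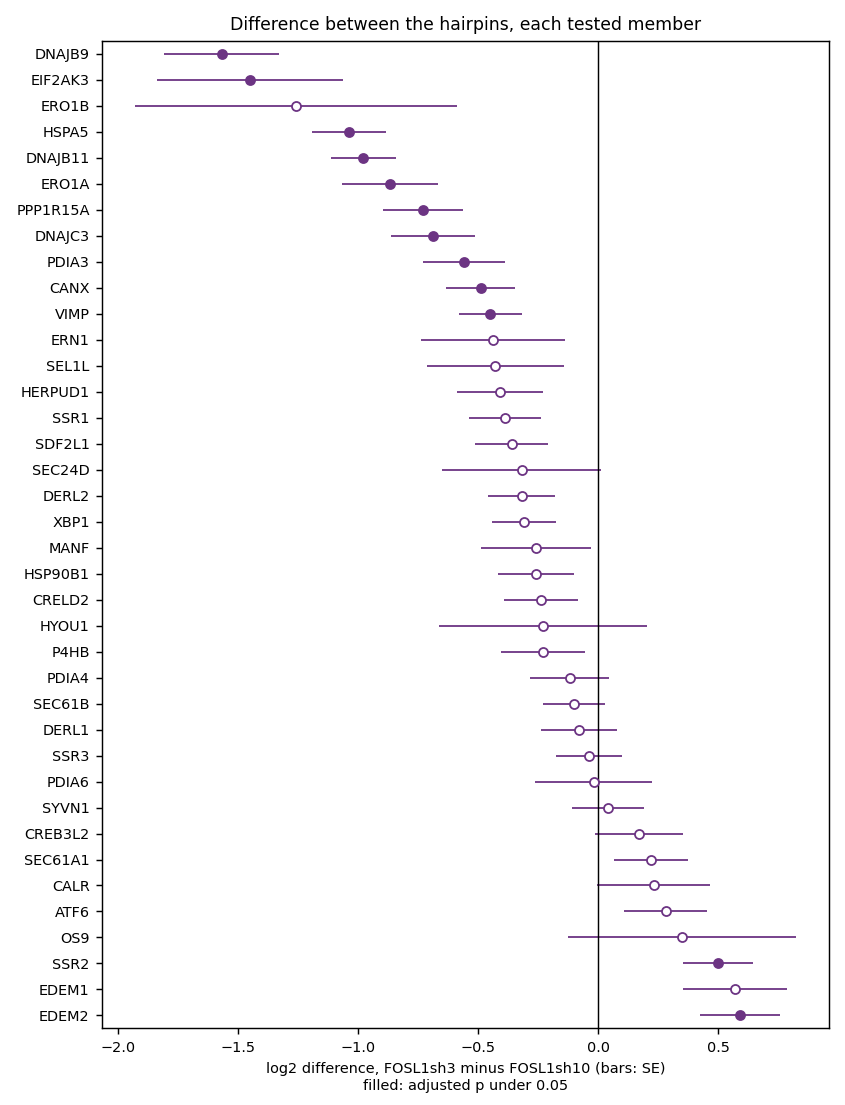
Log2 difference, FOSL1sh3 minus FOSL1sh10, for each of the 38 tested genes with SE bars, ordered by size; filled points have adjusted p under 0.05. The 10 filled points at the top run from -1.57 for DNAJB9 to -0.45 for VIMP, and SSR2 (0.50) and EDEM2 (0.59) are the filled points at the bottom.

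Neighbouring genes of the secretory pathway were counted in 7 further lists. With FOSL1sh3, 4.55% to 17.4% of the tested genes of a list were called, against 10.9% of all genes. With FOSL1sh10, 0 to 18.8% were called, against 5.28% of all genes. Between the hairpins it was 30.8% in the PERK and ATF4 arm, 25% in other regulators and 4.35% to 15% in the other lists, against 12.7% of all genes. In the PERK and ATF4 arm, 4 of 13 tested were lower in FOSL1sh3 than in FOSL1sh10, with a median of -0.30, and 1 was higher and 1 lower with FOSL1sh3 against GFPsh. That is 30.8% lower between the hairpins, against 7.00% of all genes, and 7.69% lower with FOSL1sh3, against 5.65%. ATF3, a stress-induced transcription factor, had 11.5, 18.9 and 9.8 CPM in FOSL1sh3, 36.9, 36.1 and 27.9 CPM in FOSL1sh10, and 19.6, 16.9 and 23.5 CPM in GFPsh. Its hairpin difference was -1.34 (adjusted p 0.000926). The hairpin groups did not overlap each other, while FOSL1sh3 overlapped GFPsh. STC2, a secreted glycoprotein induced by ATF4, differed by -0.89 (adjusted p 0.0049) and TRIB3, a pseudokinase target of ATF4 and CHOP, by -0.48 (adjusted p 0.0283). CEBPB, a bZIP factor, was instead higher with both hairpins, at 0.67 with FOSL1sh3 (adjusted p 0.00516) and 0.87 with FOSL1sh10 (adjusted p 0.00073). The other called gene of the arm, PSAT1, of serine synthesis, was named after its values were seen and differed by -0.75 (adjusted p 0.00557).

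Among translocation and signal peptidase genes, 2 of 20 were lower with FOSL1sh3, 1 was higher with FOSL1sh10, and 3 were lower in FOSL1sh3 than in FOSL1sh10 (median -0.10). These are 10%, 5% and 15% of the list. Of all genes, 5.65% were lower with FOSL1sh3, 3.13% higher with FOSL1sh10 and 7.00% lower between the hairpins. TRAM1, which helps nascent chains enter the channel, was at -0.82 with FOSL1sh3 (adjusted p 0.012) and -1.0 between the hairpins (adjusted p 0.00271). SPCS3, a signal peptidase subunit, was at -0.60 with FOSL1sh3 (adjusted p 0.00997), SEC61A2, a channel subunit, at -0.95 between the hairpins (adjusted p 0.0306), and SRP68, of the signal recognition particle, at 0.51 with FOSL1sh10 (adjusted p 0.0322). Of other oxidoreductases and folding factors, 3 of 23 were lower and 1 higher with FOSL1sh3, and 1 was lower and 1 higher with FOSL1sh10. The share lower with FOSL1sh3 was 13%, against 5.65% of all genes, and the share higher with FOSL1sh10 4.35%, against 3.13%. SELENOM, a thioredoxin-like selenoprotein, was higher at 1.36 with FOSL1sh3 and 1.54 with FOSL1sh10 (adjusted p 0.000147 and 2.95e-05). TMX3 and DNAJC10, both oxidoreductases, were at -1.17 and -0.77 with FOSL1sh3 (adjusted p 0.0154 and 0.0119), and TMX4 at -0.65 with FOSL1sh10 (adjusted p 0.0375). Between the hairpins 1 of the 23 was lower (4.35%, against 7.00% of all genes).

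In N-glycosylation, 2 of 18 were lower with FOSL1sh3, the glucosyltransferase ALG5 at -0.53 and the oligosaccharyltransferase subunit OSTC at -0.75 (adjusted p 0.0173 and 0.0404), and UGGT1, the glycoprotein folding sensor, was higher in FOSL1sh3 than in FOSL1sh10 by 0.74 (adjusted p 0.00233). Of other degradation factors, 1 of 22 was lower with FOSL1sh3, UBXN8 at -0.52 (adjusted p 0.0391), while UBE2J1, a ubiquitin-conjugating enzyme, and ERLIN1 differed between the hairpins by -0.67 and 0.51 (adjusted p 0.0171 and 0.0275). Of COPII and export genes, 1 of 17 was lower with FOSL1sh3, the cargo receptor TMED2 at -0.82 (adjusted p 0.0186), and SEC16A, a scaffold of ER exit sites, differed between the hairpins by 0.51 (adjusted p 0.0348). Of other response regulators, 1 of 16 was higher and 1 lower with FOSL1sh3, ATF6B at 0.98 (adjusted p 0.0246) and NFYC, an NF-Y subunit, at -0.49 (adjusted p 0.029). With FOSL1sh10, NFYC was at -0.53 (adjusted p 0.028), ERN2, the epithelial form of IRE1, at -0.88 (adjusted p 0.0356), and BBC3, a pro-apoptotic gene, at 0.73 (adjusted p 0.028). Between the hairpins 3 regulators were lower and 1 higher, ERN2 at 0.76 (adjusted p 0.0446). That is 18.8% lower, against 7.00% of all genes, and 6.25% higher, against 5.74%. The share lower with FOSL1sh3 was 11.1% for N-glycosylation, 4.55% for degradation factors, 5.88% for COPII and 6.25% for regulators, against 5.65% of all genes. Medians of the hairpin difference were -0.00 for N-glycosylation, -0.11 for the oxidoreductases, -0.13 for degradation factors, -0.11 for COPII and -0.12 for regulators.

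**Figure D4:**
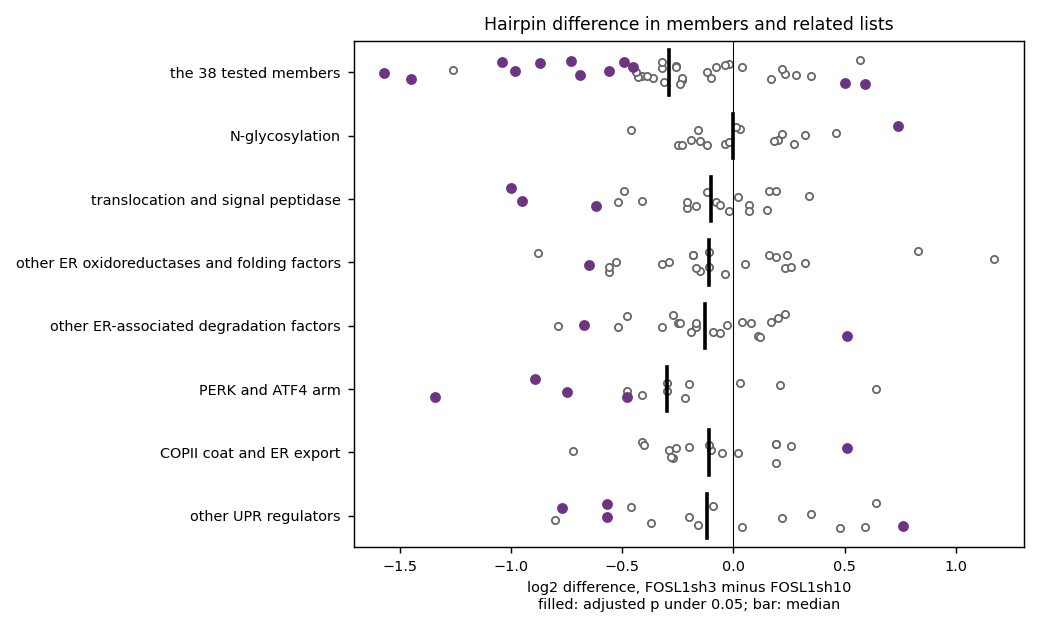
Log2 difference, FOSL1sh3 minus FOSL1sh10, of every tested gene in the 38 folding and response genes and in 7 neighbouring lists; filled points have adjusted p under 0.05 and bars mark medians. The median of the 38 genes is -0.29, that of the PERK and ATF4 arm -0.30, and those of the other 6 lists lie between -0.13 and -0.00.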

How the data were processed

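The authors deposited 1 table of raw read counts per gene for each of 9 libraries, whole numbers with no normalization. Per the labels' protocols, libraries were made by MARS-seq, which tags transcripts near their 3' ends. Per the submitters' processing notes, FastQC 0.11.5 and STAR 2.5.3a were used with hg38; per the file headers, featureCounts 1.6.0 counted exons of GENCODE release 28 with no strand option. The sources used here do not state whether molecular identifiers were collapsed, so a floor of 3 counts covers counting error alone. With no strand option, reads from exon bases shared by genes on opposite strands cannot be told apart. Whether such reads were dropped or counted was not examined here. Because tags lie near 3' ends, a share of exon bases does not give the share of reads affected. Coordinates are those of hg38, counted from 1.

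The test was edgeR's quasi-likelihood F test (edgeR 4.0.16, R 4.3.3) on the counts, in 1 fit over all 9 libraries with group as the term, after the default filter (minimum count 10, minimum total 15) and TMM scaling, with Benjamini-Hochberg adjustment over 12814 genes. The common biological coefficient of variation was 16.4%. SE is the log2 fold change over the root of the F statistic; the fitting steps were tested on simulated data. The gene members and lists were chosen with earlier results of these data known. Values per library are given for every gene called in any comparison, for ATF6, ERN1, EIF2AK3 and XBP1, and for HSPA5, HSP90B1, P4HB and CALR; up to 4 called genes with the smallest p for the mean are named per neighbouring list. Protein sequences were not used here. Alternatives were DESeq2 1.42.0, its size factors, library totals, no filter, only the groups compared, a replicate block, and leaving out each library.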

Additional observations from a re-analysis of the deposited data

Results flagged for a closer look

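The hairpins differed from each other, by the test of the difference itself, in 12 of the 38 tested genes, 31.6%, against 12.7% of all genes (edgeR, adjusted p under 0.05). The log2 difference, FOSL1sh3 minus FOSL1sh10, was -1.57 for DNAJB9, -1.45 for EIF2AK3, -1.04 for HSPA5, -0.98 for DNAJB11, -0.87 for ERO1A, -0.73 for PPP1R15A and -0.69 for DNAJC3. It was -0.56 for PDIA3, -0.49 for CANX and -0.45 for VIMP, and 0.50 for SSR2 and 0.59 for EDEM2. Of the 12, DNAJB9 lay on opposite sides of GFPsh in every library of the hairpins. FOSL1 itself differed between the hairpins by -0.05 (adjusted p 0.9). The cause of these differences was not tested.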

How the results depend on the processing

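Members called with FOSL1sh3 numbered 5, and 3 to 9 when each library was left out in turn; with FOSL1sh10 they numbered 1, and 0 to 1, for the mean 2, and 1 to 3, and between the hairpins 12, and 4 to 15. Over the same fits 4.51% to 13.6%, 2.62% to 3.19%, 2.38% to 7.55% and 5.37% to 14.5% of all genes were called. The low value of 4 came without FOSL1sh10 2, and 6 were called without FOSL1sh10 3. With only the groups compared in the fit, 2 were called with FOSL1sh10 and 8 between the hairpins, against 8.98% and 10.5% of all genes. With library totals alone, 2 were called with FOSL1sh10 and 15 between the hairpins, against 6.55% and 17.1% of all genes. The median of all genes then moved to 0.11 with FOSL1sh10. With the replicate number as a block the counts were 5, 1, 2 and 12, as without it. Deviations of libraries with the same number correlated at -0.116 to 0.183 and with different numbers at -0.165 to 0.156. Not every pair of the same number was over 0.1, so the numbers were not treated as pairs. Of 20 called values, 8 kept their call under every alternative run: DNAJB11 and HSPA5 with FOSL1sh3 and between the hairpins, DNAJB11 for the mean, SSR1 with FOSL1sh3, and DNAJB9 and PPP1R15A between the hairpins. None of the 20 changed sign, and the signs that did change belonged to values not called. Under library totals CALR with FOSL1sh10 was 0.02, ERN1 with FOSL1sh3 was -0.01 and XBP1 with FOSL1sh10 was 0.10. Leaving out libraries gave -0.06 to 0.19 for ATF6, -0.28 to 0.43 for CALR, -0.27 to 0.37 for ERN1, -0.24 to 0.01 for HSP90B1, -0.23 to 0.09 for P4HB and -0.24 to 0.05 for PPP1R15A with FOSL1sh3. With FOSL1sh10 it gave -0.22 to 0.05 for CALR, -0.17 to 0.26 for ERO1A, -0.04 to 0.17 for PDIA3 and -0.09 to 0.05 for XBP1, and between the hairpins -0.21 to 0.50 for CALR. The letters TGANTCA were in 1 promoter, HSPA5, when bases after the start were not counted. The cause of these shifts was not tested. Low counts limit EIF2AK3, ERO1B, HYOU1 and OS9.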
